A study of Mus musculus with 32 samples.

Results

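The circadian clock genes described here are 10 of the 55421 genes in the count table, of which 25134 had any count. They were chosen by symbol, as known parts of the clock, with earlier results of these data known: Arntl, Clock, Per1, Per2, Per3, Cry1, Nr1d1, Nr1d2, Dbp and Tef, each found once. The samples were livers of 16 mice in 4 groups of 4: hepatectomy with Mettl14 knockout (KO, 72 to 73 days old), hepatectomy with the floxed control genotype (flox, 72 to 73 days), sham surgery with KO (72 to 73 days) and sham surgery with flox (71 to 77 days). METTL14 is a subunit of the enzyme that methylates adenosine in mRNA at the N6 position (m6A), and hepatectomy is the surgical removal of liver tissue. Each liver gave an input library, from a stranded mRNA kit, and an IP library, from RNA cut to about 100 bases and pulled down with an antibody against m6A (a second kit). The sources used here do not say what drives the deletion or in which cells, how long after surgery the livers were taken, or at which hour.

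In mammals the clock is a loop of transcription and repression. BMAL1 (encoded by Arntl) and CLOCK bind E-box sequences and switch on the Per, Cry, Nr1d1, Nr1d2, Dbp and Tef genes, the PER and CRY proteins then repress BMAL1 and CLOCK, and the REV-ERB proteins (Nr1d1, Nr1d2) repress Arntl. DBP and TEF carry the rhythm to metabolic genes through D-box sequences. In liver the mRNAs of Dbp, Nr1d1 and the Per genes swing over the day while Arntl runs in near antiphase, so the hour at which a liver is taken sets much of their level. The comparisons below ask whether the groups differ in the levels of these genes. Each liver was taken once, at an hour not recorded in the labels, so phase itself was not measured.

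Mettl14 itself gave no check of genotype. None of the 16 inputs held a read of it, and it was found in the IP libraries of 3 of 8 KO and 5 of 8 flox animals (at most 60 counts in KO and 124 in flox). The total count was 7133988 to 24298816 in the IP libraries and 8178017 to 12534161 in the inputs, and a count of 0 allows up to 0.123 to 0.421 CPM (counts divided by the total of the library and put on a common scale) in an IP library and up to 0.239 to 0.367 CPM in an input. Among the IP libraries that of hepatectomy KO replicate 4 was shallowest and held 6676 genes with at least 10 counts, against a median of 11393, and 6 of the 10 clock genes were at 0 in it. The changes of the clock genes and their correlations are given without it below where they differ. The livers expressed the hepatocyte markers, all 8 of those named being above 0 in all 16 IP libraries.

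The stretches before the starts of 4 clock genes are shown because these genes carry the results below or hold the elements named above. They come from RefSeq on GRCm38.p6, which had a window for 9 of the 10 genes (14 windows), and capitals mark E-box letters (CACGTG) or D-box letters (TTANGTAA), searched on both strands. The stretches are chr7:45704997-45705087 (plus strand) for Dbp, chr15:81811164-81811413 (plus) for the second start of Tef, chr11:69098699-69098947 (plus) for Per1 and chr4:151044666-151044915 (minus) for Per3. The Dbp and Per1 stretches end where an exon of the count table begins.
Dbp: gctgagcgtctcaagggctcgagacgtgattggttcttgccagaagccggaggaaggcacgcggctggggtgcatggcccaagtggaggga
Tef: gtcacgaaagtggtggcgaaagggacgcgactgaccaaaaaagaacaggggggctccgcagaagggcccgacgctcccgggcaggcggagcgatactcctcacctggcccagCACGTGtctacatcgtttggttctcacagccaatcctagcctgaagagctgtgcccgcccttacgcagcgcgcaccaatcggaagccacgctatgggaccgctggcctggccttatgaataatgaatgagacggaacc
Per1: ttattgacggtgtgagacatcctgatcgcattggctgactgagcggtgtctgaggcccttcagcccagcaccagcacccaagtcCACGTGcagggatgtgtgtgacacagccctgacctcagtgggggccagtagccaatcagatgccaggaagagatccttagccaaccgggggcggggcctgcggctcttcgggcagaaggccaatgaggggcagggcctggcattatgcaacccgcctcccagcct
Per3: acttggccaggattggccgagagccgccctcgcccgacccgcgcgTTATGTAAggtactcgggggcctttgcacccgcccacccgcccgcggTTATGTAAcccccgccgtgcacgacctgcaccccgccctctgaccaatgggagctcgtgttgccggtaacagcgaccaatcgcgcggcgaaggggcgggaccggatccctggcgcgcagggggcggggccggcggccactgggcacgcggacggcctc
The E-box letters began 166 bases before the start of Per1, 60 before that of Cry1, and 127 and 138 before the 2 starts of Tef. Among all 32851 windows of 250 bases before a start, 6.02% held them. The D-box letters occurred in the Per3 window, beginning 205 and 158 bases before its start, and in 2.06% of all windows. The REV-ERB and ROR response element, the other motif searched, was in 0 of the clock gene windows and in 0.177% of all. The Dbp window held none of these motifs.

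The clock genes varied less within groups in the IP libraries than in the inputs. Of the 160 values (10 genes in 16 libraries) 20 were at 0 in IP (12.5%) and 67 in input (41.9%), while 121 in IP and 69 in input rested on at least 100 counts. For these genes the coefficient of variation among 4 animals of a group had a median of 71.4% in IP and 123% in input. All genes with a group mean between 5 and 20 CPM had 85.3% in IP and 196% in input, and those between 20 and 100 CPM had 49.5% in IP and 118% in input. Per kilobase of exon, the mean IP level in sham flox livers was 53.6 CPM for Nr1d1, 42.9 for Dbp, 35.8 for Nr1d2, 16.3 for Tef, 11.3 for Per1, 8.14 for Per2, 4.66 for Per3, 1.60 for Clock, 0.824 for Cry1 and 0.762 for Arntl.

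**Figure D1:**
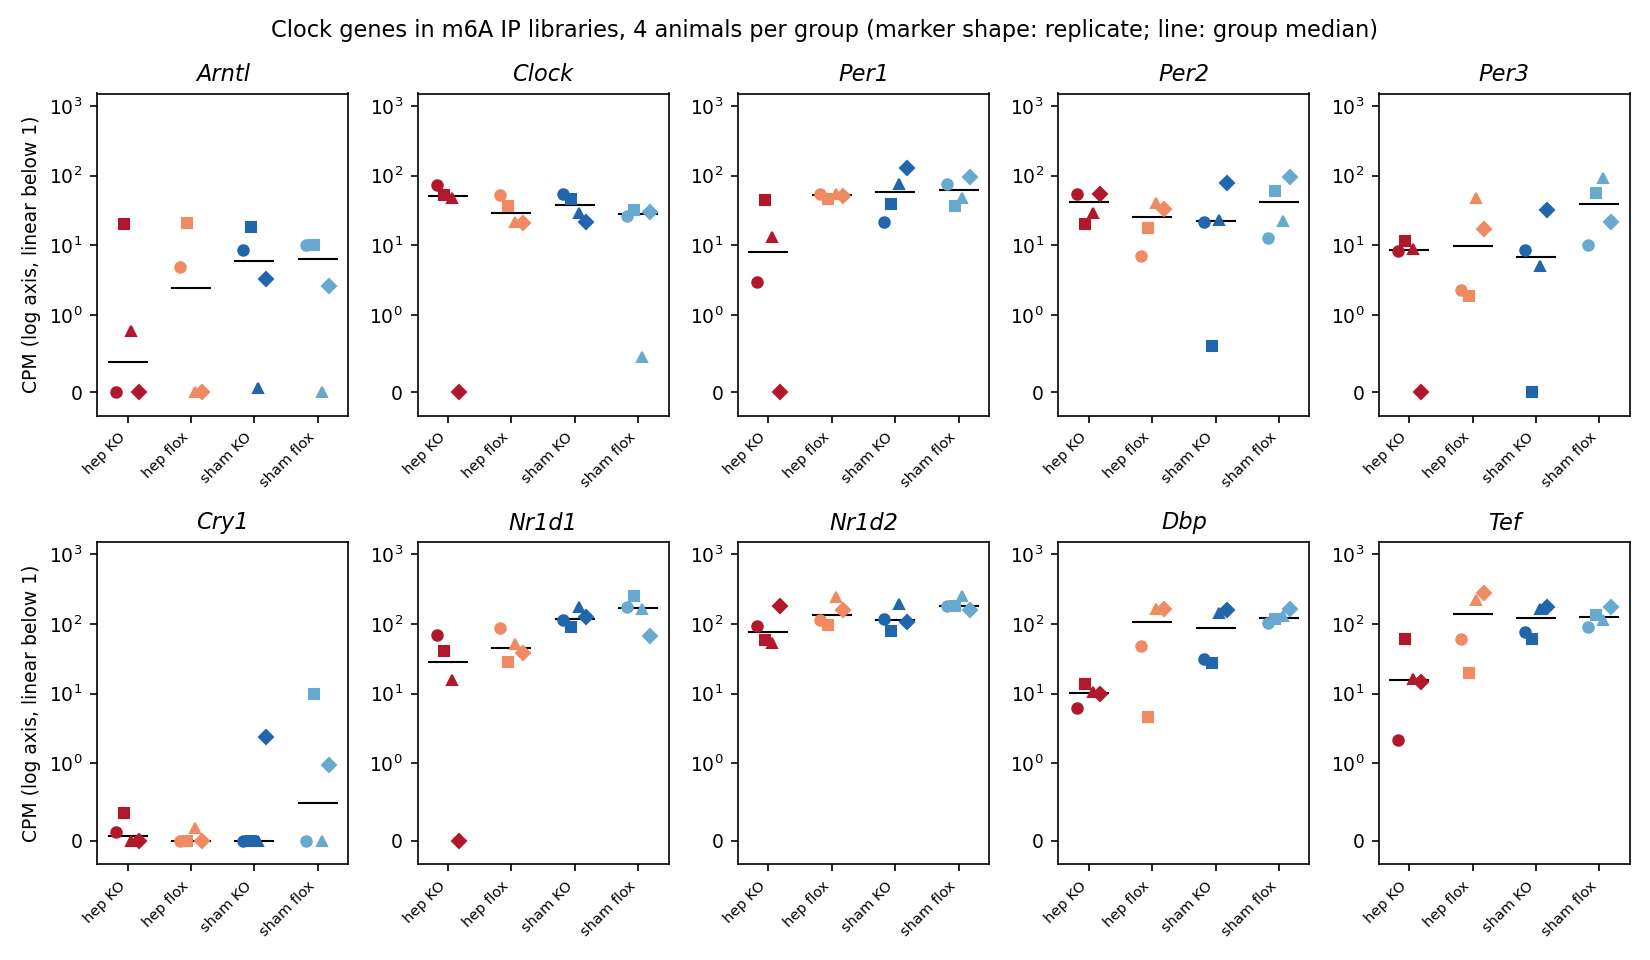
IP level of the 10 clock genes (CPM, log axis that is linear below 1) in every animal, with hepatectomy KO, hepatectomy flox, sham KO and sham flox from left to right. Points are animals, their shape the replicate number, and lines are group medians; the 4 hepatectomy KO points of Dbp lie between 6.23 and 13.9 CPM.

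Dbp (ENSMUSG00000059824, chromosome 7, 45705088 to 45710203, plus strand, positions as the count table gives them), a transcription factor of the PAR bZip family and one of the most strongly rhythmic mRNAs of liver, was the clock gene with the smallest p in IP between hepatectomy KO and hepatectomy flox livers. Its IP level was 6.23, 13.9, 10.4 and 9.81 CPM in hepatectomy KO replicates 1 to 4, against 49.0, 4.62, 165 and 167 CPM in hepatectomy flox. All 4 KO livers were low, while the flox livers spread widely and 1 of them, replicate 2, lay below every KO liver. The level averaged 10.1 ± 3.14 CPM in hepatectomy KO and 96.4 ± 82.4 CPM in hepatectomy flox (SD, n = 4 each), 11.4-fold lower in the fit (log2 change -3.51, SE 0.73, edgeR adjusted p = 0.00981). In an IP library of bulk liver, fewer cells that carry an mRNA, less of it in each cell and less m6A on it cannot be told apart. The Dbp exons share 539 bases with exons of Sphk2 on the opposite strand, and the sources used here do not say whether counting used strand. Sphk2 itself did not pass the threshold (31.0 ± 24 CPM in hepatectomy KO and 57.7 ± 21.4 CPM in hepatectomy flox, -1.17, SE 0.67, adjusted p = 0.508).

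Tef (ENSMUSG00000022389, chromosome 15, 81802421 to 81826863, plus strand), a transcription factor of the same family, fell as well. Its IP level was 2.15, 60.3, 16.4 and 14.7 CPM in hepatectomy KO and 60.9, 19.6, 218 and 279 CPM in hepatectomy flox. The 2 highest flox livers were replicates 3 and 4, as for Dbp, and the groups overlapped through KO replicate 2 and flox replicate 2. The means were 23.4 ± 25.4 CPM in hepatectomy KO and 144 ± 124 CPM in hepatectomy flox, 7.46-fold lower in the fit (log2 change -2.90, SE 0.72, adjusted p = 0.0369).

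These 2 calls, both lower in KO, were made among 9 clock genes tested in IP, where edgeR called 1.13% of all genes lower and 1.48% in either direction. In 7 of the 9 the log2 change was below 0, as in 49.6% of all genes, and their median change was -0.98 against 0.01 for all genes. The call of Tef ended without hepatectomy flox replicate 3 (-2.65, adjusted p = 0.116) or 4 (-2.36, 0.169), without hepatectomy KO replicate 1 (-2.52, 0.0873) or 3 (-2.77, 0.126), and without scaling factors (-2.62, 0.08), and it was strongest without hepatectomy KO replicate 2 (-3.95, 0.00592). The call of Dbp held without each of the 8 libraries in turn (-3.91 to -3.10, adjusted p = 0.000736 to 0.0444), and both calls ended in a fit of only the 8 libraries compared (Dbp -3.54, adjusted p = 0.0678; Tef -2.93, 0.163).

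The ages on the labels ran with the spread of the flox livers. At 72 days Dbp was at 9.81 CPM in the single hepatectomy KO liver (replicate 4, the shallowest IP library) and at 165 to 167 CPM in 2 hepatectomy flox livers. At 73 days it was at 6.23 to 13.9 CPM in 3 KO livers and at 4.62 to 49.0 CPM in 2 flox livers, which overlap. Tef stood at 14.7 CPM (KO) against 218 to 279 CPM (flox) at 72 days, and at 2.15 to 60.3 CPM (KO) against 19.6 to 60.9 CPM (flox) at 73 days. The gap between genotypes was thus wide in the 72-day livers and overlapping in the 73-day livers for both genes. With age in days as a block neither change passed (Dbp -2.66, adjusted p = 0.0937; Tef -2.16, adjusted p = 0.262). Whether livers of 1 age were also collected at 1 hour is not given in the sources used here, so age and hour of collection cannot be told apart.

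Among the repressors of the loop, Per1 (ENSMUSG00000020893, chromosome 11, 69095217 to 69109960, plus strand) separated the hepatectomy groups without passing the test. Its IP level was 2.97, 44.6, 13.0 and 0 CPM in hepatectomy KO and 54.2, 46.0, 53.7 and 51.2 CPM in hepatectomy flox. Every KO liver was below every flox liver, a separation that Per1 alone of the 9 tested clock genes showed and that 3.64% of all genes showed in the lower direction. The change was -2.06 on the log2 scale (SE 0.90, adjusted p = 0.288), and -3.51 to -1.65 without each library in turn (-1.65, adjusted p = 0.224, without hepatectomy KO replicate 4, its liver at 0). Per2, its paralog, was at 53.6, 20.2, 29.2 and 54.1 CPM in hepatectomy KO and at 7.08, 17.7, 39.7 and 33.4 CPM in hepatectomy flox (0.45, SE 0.88, adjusted p = 0.949). Per3 was at 8.39, 11.7, 8.72 and 0 CPM in KO and at 2.32, 1.87, 47.0 and 17.1 CPM in flox (-1.47, SE 1.36, adjusted p = 0.801), and its change was -0.24 without hepatectomy flox replicate 3 and -1.06 without hepatectomy KO replicate 4. Both pairs of groups overlapped, so the 3 Per genes did not separate the genotypes alike. Cry1, a co-repressor with the PER proteins, was at or under 0.359 CPM in all 8 hepatectomy IP libraries and was not tested.

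The REV-ERB genes, repressors of Arntl, had lower means in KO and did not pass. Nr1d2 was at 92.8, 59.8, 53.3 and 178 CPM in hepatectomy KO and at 113, 95.6, 241 and 160 CPM in hepatectomy flox (-0.92, SE 0.43, adjusted p = 0.333). In KO 3 livers lay below the lowest flox liver, and replicate 4, the library with the lowest total, lay above 3 flox livers. Without that library the change was -1.40 (SE 0.40, adjusted p = 0.0554). Without it and hepatectomy flox replicate 2 together, a setting chosen after seeing the data, Nr1d2 passed (-1.56, adjusted p = 0.0423). Nr1d1 (ENSMUSG00000020889, chromosome 11, 98767932 to 98775333, minus strand) was at 68.9, 40.5, 15.8 and 0 CPM in KO and at 88.5, 28.8, 51.3 and 38.6 CPM in flox, which overlap (-0.98, SE 0.78, adjusted p = 0.73), with a change of -0.57 without hepatectomy KO replicate 4 (SE 0.49, adjusted p = 0.691). Exons of Nr1d1 share 263 bases with Thra on the opposite strand.

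Neither activator passed the test. Arntl was at 0, 20.3, 0.788 and 0 CPM in hepatectomy KO and at 4.84, 20.7, 0 and 0 CPM in hepatectomy flox (-0.63, SE 2.25, adjusted p = 0.974). Clock was at 74.0, 51.9, 48.3 and 0 CPM in KO and at 51.8, 36.9, 21.6 and 20.9 CPM in flox (0.14, SE 1.04, adjusted p = 0.988). For Clock 3 KO livers lay above the second highest flox liver, and the KO liver at 0 was replicate 4, the library with the fewest genes. Without it the change of Clock was 0.55 (SE 0.77, adjusted p = 0.869) and that of Arntl -0.22 (SE 2.23, adjusted p = 0.998). At 73 days Clock was at 48.3 to 74.0 CPM in 3 hepatectomy KO livers and at 36.9 to 51.8 CPM in 2 hepatectomy flox livers.

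**Figure D2:**
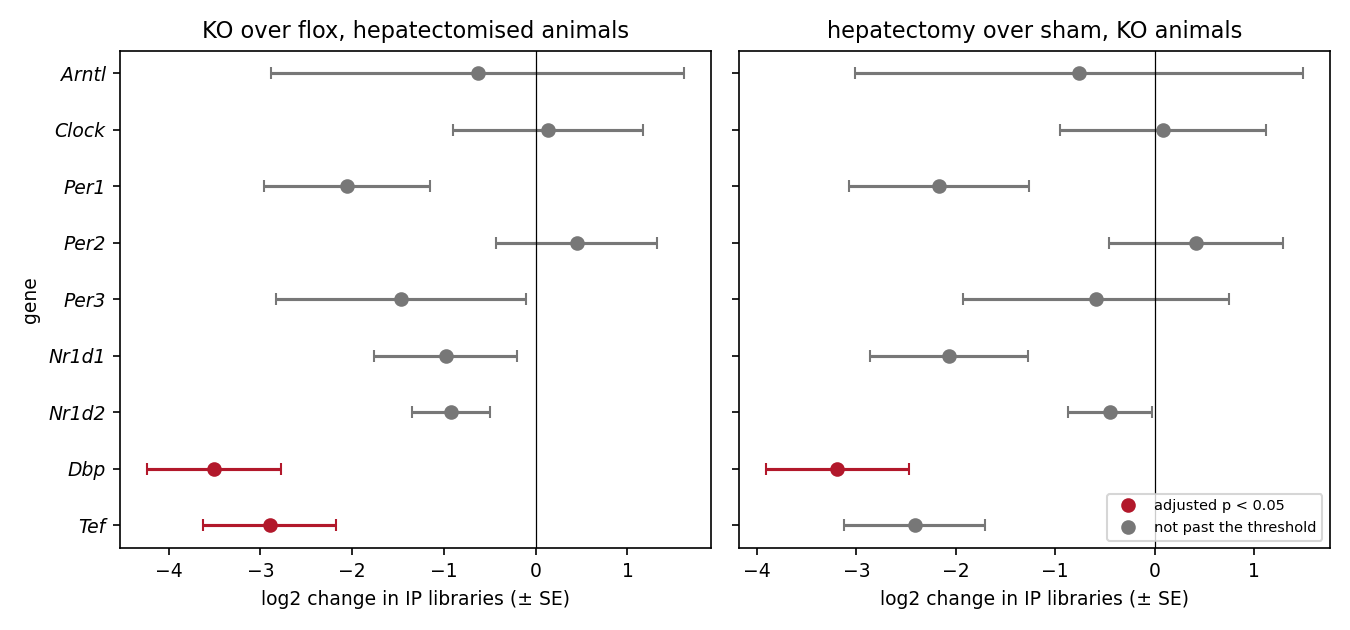
Log2 change of the IP level with its standard error for the 9 tested clock genes: KO over flox after hepatectomy (left) and hepatectomy over sham in KO (right). Red points passed the adjusted threshold of 0.05 (Dbp at -3.51 and Tef at -2.90 on the left, Dbp at -3.19 on the right) and grey points did not.

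Surgery was compared within each genotype. In KO livers Dbp was lower after hepatectomy: 6.23 to 13.9 CPM in the 4 hepatectomy KO livers, against 31.9, 27.5, 144 and 160 CPM in sham KO. The groups did not overlap, and the means were 10.1 ± 3.14 CPM in hepatectomy KO and 90.9 ± 71.0 CPM in sham KO, 9.15-fold lower after hepatectomy in the fit (log2 change -3.19, SE 0.72, adjusted p = 0.034). It was the single call among 9 clock genes (0.578% of all genes were called lower and 0.627% in either direction). The call ended without hepatectomy KO replicate 1 (-3.04, adjusted p = 0.116) or 3 (-3.22, 0.0967), without sham KO replicate 3 (-2.82, 0.11) or 4 (-2.89, 0.0838), without scaling factors (-3.17, 0.0518) and in a fit of only the 8 libraries compared (-3.22, 0.17). It also ended with the replicate number as a block. It passed with age as a block (-3.03, adjusted p = 0.0379), and within 73 days, the age of 3 livers in each group, the hepatectomy KO livers (6.23 to 13.9 CPM) stayed below the sham KO livers (27.5 to 144 CPM).

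Tef and Nr1d1 also separated hepatectomy from sham KO livers, making 3 of 9 clock genes lower without overlap, against 4.35% of all genes. Tef was at 2.15 to 60.3 CPM after hepatectomy and at 77.9, 60.5, 162 and 175 CPM after sham surgery, so the highest of the first group nearly met the lowest of the second (-2.41, SE 0.71, adjusted p = 0.146). It passed without hepatectomy KO replicate 2 (-3.47, adjusted p = 0.0194). Nr1d1 was at 0 to 68.9 CPM after hepatectomy and at 113, 89.7, 176 and 126 CPM after sham surgery (-2.07, SE 0.80, adjusted p = 0.345), a change of -2.86 to -1.66 without each library in turn. Per1 was at 21.4, 39.1, 75.4 and 128 CPM in sham KO, and its change after hepatectomy did not pass (-2.17, SE 0.90, adjusted p = 0.382; -3.62 to -1.76 without each library in turn). Without hepatectomy KO replicate 4 it was -1.66 for Nr1d1 (adjusted p = 0.113) and -1.76 for Per1 (0.286). In 7 of the 9 genes the log2 change was below 0, as in 53.1% of all genes, and the median change of the 9 was -0.76, against -0.09 for all genes.

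In flox livers hepatectomy gave 0 calls among 9 clock genes with edgeR (0.0285% of all genes called), 0 at an unadjusted p under 0.05 (6.92% of all genes) and 0 with DESeq2. Dbp was at 4.62 to 167 CPM after hepatectomy and at 105, 119, 128 and 162 CPM in sham flox (-0.38, SE 0.66, adjusted p = 1). The sham flox livers were close together, and 2 hepatectomy flox livers lay far below them while the other 2 lay above. Tef was at 19.6 to 279 CPM after hepatectomy and at 89.5, 135, 114 and 174 CPM in sham flox (0.21, SE 0.67, adjusted p = 1). Nr1d1 had the smallest p of the 9, at 28.8 to 88.5 CPM after hepatectomy and 177, 249, 166 and 67.9 CPM in sham flox (-1.61, SE 0.79, adjusted p = 0.728), and with age as a block its change turned to 0.30.

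Between sham KO and sham flox livers edgeR called 0 of the 9 genes (0.0927% of all genes), with 0 at an unadjusted p under 0.05 (5.7% of all genes) and 0 with DESeq2. Dbp averaged 90.9 ± 71.0 CPM in sham KO and 128 ± 24.1 CPM in sham flox (-0.70, SE 0.66, adjusted p = 1). Nr1d2 was at 118, 79.5, 192 and 107 CPM in sham KO and at 183, 183, 250 and 158 CPM in sham flox, where 1 KO liver overlapped the flox range (-0.78, SE 0.43, adjusted p = 0.999). Per3 was at 8.64, 0, 5.03 and 32.2 CPM in sham KO and at 10.1, 56.2, 91.1 and 21.7 CPM in sham flox (-2.28, SE 1.40, adjusted p = 1). The median of all genes stood at 0.16 in this comparison.

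For Dbp the order of the group means was sham flox, hepatectomy flox, sham KO and hepatectomy KO, and the first 3 did not differ beyond their spread. Whether the genotype difference itself depended on surgery was tested as an interaction, which passed for 0 of 9 clock genes (0.0285% of all genes), with 2 at an unadjusted p under 0.05 (7.89% of all genes) and 0 with DESeq2. Those 2 were Dbp (-2.81, SE 0.95, adjusted p = 0.477) and Tef (-2.62, SE 0.97, adjusted p = 0.525). The comparisons share groups, so a low value in hepatectomy KO enters both KO over flox and hepatectomy over sham.

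**Figure D3:**
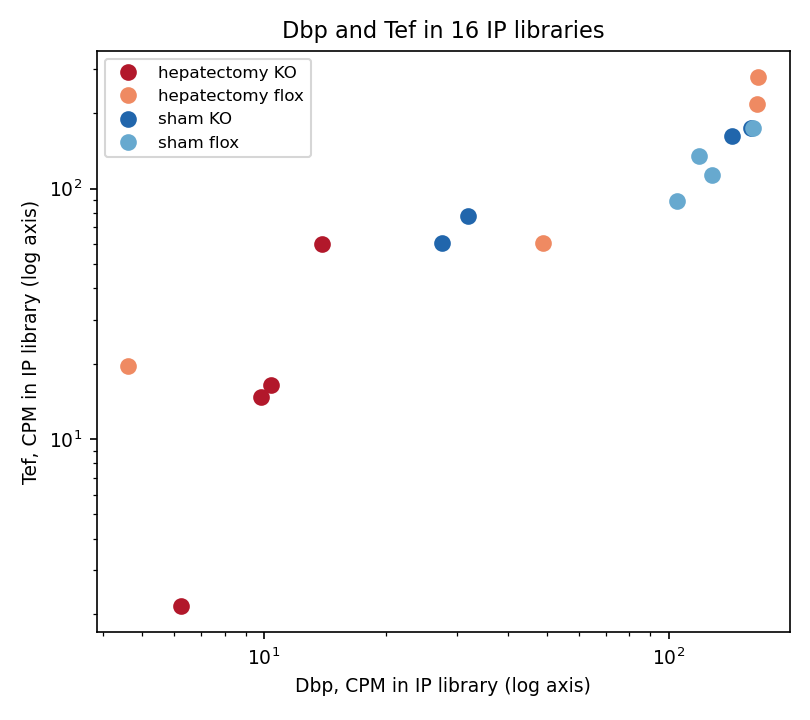
IP level of Tef (vertical) against that of Dbp (horizontal), CPM on log axes, 1 point per animal coloured by group. The hepatectomy KO livers, 6.23 to 13.9 CPM of Dbp, sit at the low end with 1 hepatectomy flox liver at 4.62 CPM, and the highest points are 2 hepatectomy flox livers at 165 and 167 CPM.

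Dbp and Tef varied together from liver to liver, as a description over 16 IP libraries that share group and depth. The Pearson correlation of their log2(CPM + 1) values was 0.899 (Spearman 0.974), 0.812 after group means were removed, and 0.888 over the 15 libraries without hepatectomy KO replicate 4, a setting chosen after seeing the data. Of 9473 genes compared, Tef was the one most like Dbp, and P2ry2, a nucleotide receptor, was also among the most like (0.852). The genes most like Tef were Brap (0.932), Serpina6, the carrier of glucocorticoids in plasma (0.917), and Dbp. Per1 and Tef had a correlation of 0.76 (Spearman 0.735), 0.472 after group means were removed and 0.831 without hepatectomy KO replicate 4. Per1 and Nr1d1, both at 0 in that library, had 0.735 (Spearman 0.379), 0.54 after group means were removed and 0.30 without it. Over the 36 pairs of 9 clock genes the median correlation was 0.31 (0.22 without hepatectomy KO replicate 4), and over all pairs of genes it was 0.06, with 5% of pairs above 0.582.

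Arntl, which runs against Dbp and the REV-ERB genes over the day, had a correlation of -0.232 with Dbp, -0.447 with Nr1d2 and 0.269 with Nr1d1. After group means were removed these were -0.606, -0.732 and 0.145, and without hepatectomy KO replicate 4 they were -0.352, -0.418 and 0.058. Clock had -0.569 with Nr1d2 (-0.681 after group means were removed, -0.621 without that library) and 0.444 with Nr1d1 (0.687 after group means were removed), which turned to -0.327 without that library. With Dbp Clock had -0.133 (Spearman -0.538), -0.171 after group means were removed and -0.508 without that library (Spearman -0.782). With Tef it had -0.068 (Spearman -0.518), -0.151 after group means were removed and -0.422 without that library (Spearman -0.789). Arntl was at 0 in 5 of 16 IP libraries and averaged 6.24 CPM, so its part of these values rests on few counts. The genes most like the others were Timp2 for Arntl (0.832), Kdm6a for Clock (0.956), Dgat2 for Per1 (0.939), Tacc1 for Per2 (0.871), Mfap1b for Per3 (0.895), Fbxo21 for Nr1d1 (0.954) and Pgrmc2 for Nr1d2 (0.908), values that lay between 0.817 and 0.939 without hepatectomy KO replicate 4.

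The input libraries measure mRNA level without the antibody. They held a median of 5291 genes with at least 10 counts (4176 to 9354), against 11393 in IP libraries. In them no clock gene had an edgeR call, which does not show equal levels, while DESeq2 called Arntl in 3 comparisons. Of 8 tested, edgeR called 0 in each comparison: KO against flox after hepatectomy (0.0342% of all genes called) and after sham surgery (0.0114%), hepatectomy against sham in KO (0.0228%) and in flox (0.0%), and the interaction (0.0%). Without adjustment, 0, 1, 0, 1 and 0 of the 8 genes had p under 0.05 in these comparisons (14%, 8.98%, 2.75%, 16.9% and 12.3% of all genes), and DESeq2 called 0, 1, 0, 1 and 1 (921, 627, 149, 1266 and 1171 of all genes). The gene behind each of these was Arntl. It was at 0, 58.0, 4.51 and 54.0 CPM in sham KO inputs and at 0 in all 4 sham flox inputs (edgeR adjusted p = 0.467). In hepatectomy flox inputs it was at 0, 0, 13.3 and 0.0836 CPM, against the same 4 zeros (edgeR adjusted p = 0.278). The Arntl difference therefore rested on livers in which the gene was found or not found, while hepatectomy KO inputs spread over 42.9, 1.51, 0.0819 and 57.2 CPM.

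**Figure D4:**
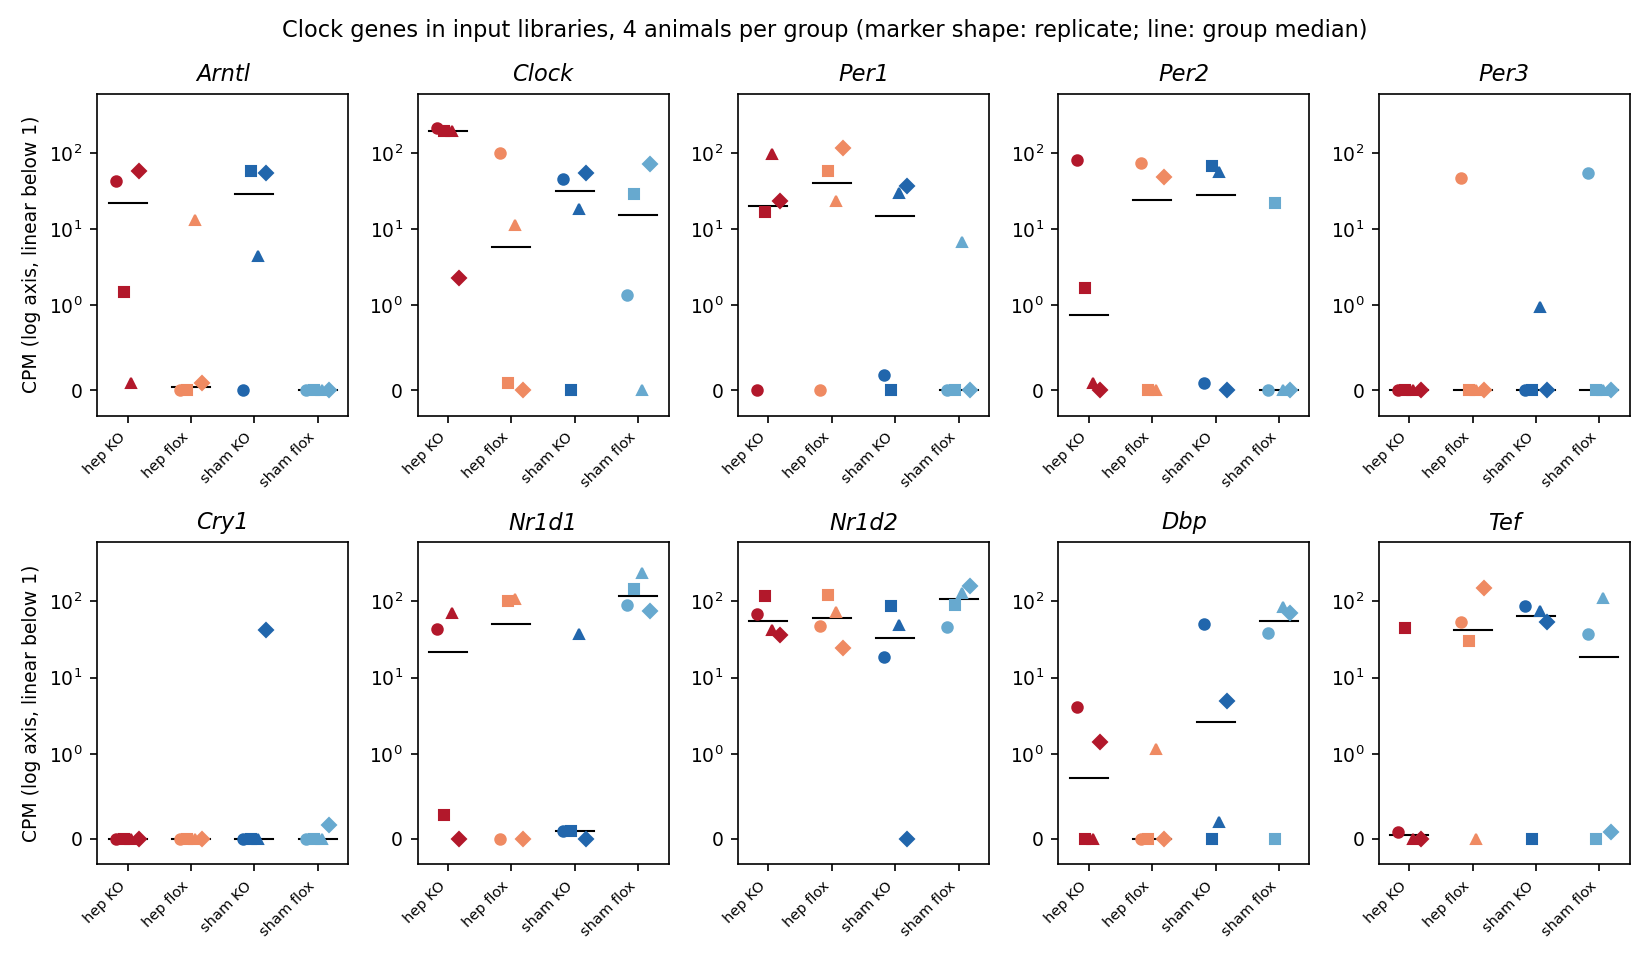
Input level of the same 10 genes (CPM, log axis that is linear below 1) in every animal, groups as in the plot of IP levels. Lines are group medians; 67 of the 160 values lie at 0, and Nr1d1 is the gene whose 4 sham flox livers, 74.5 to 232 CPM, stand above all sham KO livers.

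The genes that moved in IP could not be followed well in input. Dbp was at 4.16, 0, 0 and 1.44 CPM in hepatectomy KO inputs and at 0, 0, 1.16 and 0 CPM in hepatectomy flox inputs (2.43, SE 3.45, adjusted p = 1). Both groups were near 0 throughout, whereas sham livers reached 51.0 CPM in KO (51.0, 0, 0.196 and 5.01) and 84.7 CPM in flox (38.9, 0, 84.7 and 70.8). Between hepatectomy and sham flox inputs the Dbp difference did not pass (adjusted p = 0.459). Tef was at 0.0816, 45, 0 and 0 CPM in hepatectomy KO inputs and at 53.6, 29.8, 0 and 152 CPM in hepatectomy flox inputs (-2.29, SE 2.77, adjusted p = 1), and the groups overlapped. Nr1d1 was at 0.0885, 0.0889, 37.6 and 0 CPM in sham KO inputs and at 89.6, 144, 232 and 74.5 CPM in sham flox inputs, without overlap (-3.55, SE 2.52, adjusted p = 1). Clock was at 211, 194, 193 and 2.31 CPM in hepatectomy KO inputs and at 98.2, 0.0843, 11.5 and 0 CPM in hepatectomy flox inputs, where 3 KO livers lay above every flox liver (2.68, SE 2.25, adjusted p = 0.953).

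IP was then set against input to ask whether the share of each mRNA in the pull-down changed. In a fit of all 32 libraries edgeR called 0 of 10 clock genes in each comparison: KO against flox after hepatectomy (0.712% of all genes called) and after sham surgery (0.0209%), hepatectomy against sham in KO (0.0349%) and in flox (0.181%), and the interaction (0.0349%). Without adjustment, 2, 2, 1, 2 and 0 had p under 0.05 (21.4%, 14.8%, 11.9%, 20.5% and 14.4% of all genes), and DESeq2 called 2, 1, 1, 2 and 2. Of all genes DESeq2 called 3232, 2432, 1587, 3260 and 3168 in these comparisons. The genes behind the DESeq2 calls were Arntl, Per3 and Dbp, each with a group of inputs at or near 0. For Dbp between hepatectomy KO and hepatectomy flox, IP relative to input passed with DESeq2 (adjusted p = 0.0445) and not with edgeR (unadjusted p = 0.0247, adjusted p = 0.155). For Tef it passed with neither (edgeR -0.64, SE 2.35, adjusted p = 1).

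Within groups, the 1 call was Dbp in hepatectomy flox livers, at 49.0, 4.62, 165 and 167 CPM in IP against 0, 0, 1.16 and 0 CPM in input (adjusted p = 0.0487, with 1.21% of all genes called). A fitted fold against inputs at or near 0 depends on the added prior count and is not given. The call ended without scaling factors (adjusted p = 0.0635), with upper-quartile factors (0.0818), with the animal as a block (0.0569) and without replicate 1, 2 or 4 (0.132, 0.108 and 0.121). In hepatectomy KO, sham KO and sham flox livers edgeR called 0 of 10 genes (0.377%, 0.0209% and 0.279% of all genes), with 1, 0 and 2 at an unadjusted p under 0.05 (19.9%, 20.5% and 30.2% of all genes) and 1, 0 and 2 with DESeq2 (1887, 1768 and 3316 of all genes). The median gene stood at 1.28 in hepatectomy flox and at 0.30 in hepatectomy KO on the log2 IP over input scale.

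Nr1d2 was the clock gene with enough counts in nearly all libraries to give a ratio for each animal, log2 of IP over input with 1 CPM added to both. It averaged 0.51 ± 1.34 in hepatectomy KO and 1.32 ± 1.27 in hepatectomy flox (SD, n = 4 each; exact 2-sided permutation p = 0.4, where the smallest possible is 0.0286). The sham flox livers averaged 0.99 ± 0.81 (exact 2-sided permutation p = 0.686 against hepatectomy flox). Neither of these comparisons passed. In sham KO the ratio was 2.80 ± 2.88 and was not tested, since 1 of the 4 inputs held no count of the gene.

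The other genes of the clock gave no edgeR call in IP. Of 20 listed core clock genes and modulators 18 were tested and 0 passed with edgeR in any of the 5 IP comparisons. Without adjustment 2 had p under 0.05 between hepatectomy KO and hepatectomy flox, where DESeq2 called 2, Csnk1e (higher in KO) and Bhlhe41 (lower), and 796 of all genes. At least 1697 of all 14024 genes tested had an unadjusted p under 0.05 in that comparison. In the other comparisons 1 to 3 of the 18 had p under 0.05 without adjustment. The share of all genes was 5.7% between sham genotypes, 6.92% between surgeries in flox and 7.89% in the interaction. Between surgeries in KO it was at least 883 of the 14024 genes. DESeq2 called Bhlhe41 between hepatectomy and sham KO (392 of all genes) and 0 elsewhere. After hepatectomy the median change between KO and flox was -0.08, against 0.01 for all genes. Hlf, the third PAR bZip factor, was at 0, 20.2, 7.88 and 75.7 CPM in hepatectomy KO and at 26.4, 43.3, 74.1 and 97.9 CPM in hepatectomy flox (-1.49, SE 0.90, adjusted p = 0.549). In KO 3 livers lay below every flox liver and replicate 4 did not. Csnk1e, a kinase that marks PER proteins for destruction, averaged 34.8 ± 19.3 CPM in hepatectomy KO and 5.43 ± 3.60 CPM in hepatectomy flox (2.45, SE 1.07, adjusted p = 0.287).

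Rhythmic liver genes that lie downstream of the clock and of feeding were listed as well. After hepatectomy 5 of 24 passed as lower in KO than in flox IP libraries (1.13% of all genes did) and 1 as higher (1.48% passed in either direction). The log2 change was below 0 in 21 of the 24, and its median was -1.17, against 0.01 for all genes. Elovl3, a fatty acid elongase, was at 0.0582, 0, 0.0606 and 0.14 CPM in hepatectomy KO and at 86.0, 174, 72.2 and 91.6 CPM in hepatectomy flox (adjusted p = 4.8e-07). Cyp8b1, the sterol hydroxylase of bile acid synthesis, was at 0.95 ± 1.86 CPM in KO and 263 ± 53.6 CPM in flox (adjusted p = 7.3e-05). These 2 mRNAs were nearly missing from the KO pull-down and abundant in that of flox livers. In the inputs Cyp8b1 was at 128 ± 73.7 CPM in hepatectomy KO and 317 ± 92.7 CPM in hepatectomy flox. That input difference did not pass (-1.07, SE 0.84, edgeR adjusted p = 0.884). Of 23 listed rhythmic genes tested in input, edgeR called 0 between these groups (0.0342% of all genes). For IP relative to input, 3 of 24 passed as lower in KO (0.712% of all genes passed in either direction). Ppara, the fatty acid sensor of hepatocytes, was at 50.2, 64.6, 58.6 and 147 CPM in hepatectomy KO and at 412, 288, 587 and 399 CPM in hepatectomy flox (-2.66, SE 0.43, adjusted p = 0.000971). The groups did not overlap. Upp2, a uridine phosphorylase, changed by -3.14 (SE 0.65, adjusted p = 0.00962), and Pck1, an enzyme of glucose production, by -1.59 (SE 0.38, adjusted p = 0.0249). The gene that was higher in KO was Cyp2a5, at 347 ± 166 CPM in hepatectomy KO and 81.7 ± 30.4 CPM in hepatectomy flox (1.82, SE 0.44, adjusted p = 0.0313). Elovl3, Cyp8b1 and Ppara passed in each alternative run. Without 1 of the 8 libraries the count of lower genes was 3 to 8, with 3 without hepatectomy flox replicate 3 and 8 without hepatectomy KO replicate 4, and Cyp2a5 passed only without that KO library.

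Those 5 genes, with Elovl3 and Cyp8b1 again close to 0 in KO, were lower after hepatectomy than after sham surgery within KO livers (Ppara -1.95, adjusted p = 0.0273; Upp2 -3.73, 0.00509; Pck1 -1.71, 0.0309), a count that was 3 without hepatectomy KO replicate 3 or sham KO replicate 3. Both comparisons share the hepatectomy KO livers, and in the second 0.578% of all genes were called lower. In flox livers after hepatectomy and between sham genotypes edgeR and DESeq2 called 0 of the 24, with 3 and 2 at an unadjusted p under 0.05 (6.92% and 5.7% of all genes). Elovl3 and Cyp8b1 passed in the interaction (edgeR adjusted p = 0.000142 and 0.00227), where 0.0285% of all genes were called. Of 12 tested genes that respond to glucocorticoids, the hormones that help to set the liver clock, 2 passed as lower in hepatectomy KO than in hepatectomy flox IP libraries (1.13% of all genes did). Klf9, a repressor that is itself rhythmic, was at 254 ± 91.2 CPM in KO and 643 ± 31.9 CPM in flox (-1.61, SE 0.32, adjusted p = 0.0083), and Errfi1, a feedback inhibitor of the EGF receptor, at 1810 ± 1168 CPM in KO and 3829 ± 402 CPM in flox (-1.35, SE 0.35, adjusted p = 0.0482). The count was 1, Klf9 alone, without any 1 of hepatectomy flox replicates 1 to 3 or hepatectomy KO replicates 1 to 3, without scaling factors, with only genes of at least 5 CPM and with the replicate number as a block. It was 4 without hepatectomy KO replicate 4, with the metallothionein genes Mt1 and Mt2. With DESeq2, with age as a block, in a fit of only the 8 libraries compared and without hepatectomy flox replicate 4 it was 3 (Klf9, Mt1 and Mt2), so Errfi1 did not pass in these. In the inputs edgeR called 0 of these 12 genes between hepatectomy KO and hepatectomy flox (0.0342% of all genes). Their median input change was 0.04, against 0.49 for all genes. Klf9 was at 472 ± 164 CPM in hepatectomy KO inputs and 494 ± 321 CPM in hepatectomy flox inputs. Of 8 immediate early genes 0 passed with edgeR between hepatectomy KO and hepatectomy flox IP libraries (1 at an unadjusted p under 0.05, 0 with DESeq2). At least 1697 of all 14024 genes tested had an unadjusted p under 0.05 there. Btg2, an inhibitor of proliferation, was higher in sham KO (213 ± 185 CPM) than in sham flox IP libraries (21.6 ± 14 CPM, log2 change 3.31, SE 0.67, edgeR adjusted p = 0.0443). That call, in a comparison with 0.0927% of all genes called, ended without sham flox replicate 1, 2 or 3 or sham KO replicate 1 or 2. Between hepatectomy flox and sham flox IP libraries all 8 immediate early genes had a log2 change above 0, with a median of 2.20, against 0.05 for all genes. There edgeR called 0 of the 8 (7 at an unadjusted p under 0.05, with 6.92% of all genes) and DESeq2 called 3, Btg2, Egr1 and Ier2 (267 of all genes). The inputs of these groups did not show this rise. Of 8 immediate early genes tested in input, 4 had a log2 change below 0, and the median was -0.06, against -0.05 for all genes. In the IP interaction edgeR called 0 (5 at an unadjusted p under 0.05, with 7.89% of all genes) and DESeq2 called Btg2 and Ier2 (270 of all genes).

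Summed IP levels of liver cell type markers were not alike in the groups. The summed IP level of 8 hepatocyte markers was 19058 to 66156 CPM in hepatectomy KO, 63653 to 82277 in hepatectomy flox, 43469 to 76156 in sham KO and 62982 to 70728 in sham flox. Its median was 37851 CPM in hepatectomy KO and 67583 CPM in hepatectomy flox. In the inputs, without the antibody, the medians were 59932 CPM in hepatectomy KO and 69016 CPM in hepatectomy flox. The input ranges overlapped (57220 to 70172 CPM in KO and 66164 to 70994 CPM in flox). Between these groups in IP 7 of the 8 markers had a log2 change below 0 (49.6% of all genes) and 2 passed as lower (1.13% of all genes). Their median log2 change was about -1, against -0.98 for the 9 clock genes. Stellate cell markers (8) summed to 471 to 685 CPM in hepatectomy KO, 240 to 318 in hepatectomy flox, 318 to 753 in sham KO and 177 to 284 in sham flox. Kupffer cell markers (8) summed to 413 to 897 CPM in hepatectomy KO, 267 to 400 in hepatectomy flox, 281 to 544 in sham KO and 197 to 349 in sham flox. Stellate and Kupffer marker sums in IP were all higher in hepatectomy KO than in hepatectomy flox livers. In the inputs both sums overlapped between these groups. Stellate sums there were 298 to 610 CPM in KO and 134 to 462 CPM in flox, and Kupffer sums 250 to 540 CPM and 42.2 to 449 CPM. In IP stellate sums were also higher in every sham KO than in every sham flox liver (medians 607 and 215 CPM), and the median in hepatectomy KO was 552 CPM. Endothelial markers (8) summed to 344 to 872 CPM in hepatectomy KO, 298 to 463 in hepatectomy flox, 436 to 519 in sham KO and 259 to 465 in sham flox. Cholangiocyte markers (4) summed to 54.4 to 198 CPM in hepatectomy KO, 8.98 to 170 in hepatectomy flox, 29.6 to 183 in sham KO and 5.08 to 35.2 in sham flox. Blood cell markers (8) summed to 28.3 to 383 CPM in hepatectomy KO, 13.0 to 128 in hepatectomy flox, 29.0 to 116 in sham KO and 3.99 to 44.2 in sham flox. The blood markers S100a9, Cd79a, Cd3e and Retnlg were at 0 in 15, 14, 13 and 11 of 16 IP libraries and the cholangiocyte marker Epcam in 10. The part of these shifts in the Dbp and Tef results was not tested.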

How the data were processed

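Per the submitters' processing notes, fastp and STAR were used. Versions, counting program, annotation, build and use of strand are not given in the sources used. The table deposited by the authors gives the estimated counts (unit: expected counts) of 55421 genes in 32 libraries, not scaled between libraries, and 1.33% to 8.22% of the values of a library were not whole, as when a read that matches several genes is split. They were rounded. Genes were named by the overlap of their positions with RefSeq genes (GRCm38.p6, names only), which gave 34037 genes a symbol, 19182 of the 25134 with any count; the same matching after a shift of 1000000 bases named 678. Levels are CPM, each count over its library total on a common scale.

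Tests were run in R 4.3.3 with the quasi-likelihood F-test of edgeR 4.0.16, with TMM factors, a minimum count of 10 (filterByExpr), 1 coefficient per group and Benjamini-Hochberg adjustment over all genes tested, with a threshold of 0.05. The fits covered the 16 input libraries (8775 genes), the 16 IP libraries (14024 genes) and all 32 (14332 genes, for IP against input). DESeq2 1.42.0 was the second tool. Scripts were tested on simulated data. The design text gives 4 mice per group, so replicates are animals. A count of 0 was read as at most 3 counts, and such floors cover counting error only, since reads amplified by PCR, without molecular identifiers, need not be separate molecules.

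The 10 clock genes, the 4 gene lists beside them and the cell type markers were chosen with earlier results of these data known, and Elovl3, Cyp8b1 and Btg2 are no independent support. Named genes are the 10 clock genes, the genes most correlated with each in IP, list members past the threshold, and otherwise those with the smallest p. For each clock gene averaging at least 5 CPM in IP, up to 3 such correlated genes were found, by Pearson correlation of log2(CPM + 1). One such result is not reported here. Of 126 listed genes 119 were found by name.

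Alternatives were no scaling or upper-quartile factors, DESeq2, no filter or a mean of at least 5 CPM, a replicate or animal block, only the libraries compared, no 77-day animals, and each library left out. Age as a block and 1 fit without 2 libraries were added after seeing the data. The labels pair the input and IP library of an animal; their deviations from group means had a correlation of -0.045 to 0.098 over 2827 genes.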

Additional observations from a re-analysis of the deposited data

Results flagged for a closer look

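In 67 sets of 4 animals with any count (a tested clock gene in 1 group, 36 in IP and 31 in input) the highest or lowest animal was set against the others. Of these, 11 had a gap to the next animal, over the range of the group, above Dixon's critical value for 4 animals. Genes not tested were left out, Cry1 in IP and Per3 and Cry1 in input. For normally distributed values chance puts about 1 in 20 such sets past that value, a share that need not hold for sets with values at 0. In IP there was 1, Arntl in hepatectomy KO, where replicate 2 had 20.3 CPM and the other 3 animals 0, 0.788 and 0 CPM. The 10 in input came mostly from a gene found in 1 animal of a group and at or near 0 in the others. In hepatectomy KO inputs these were Per2 (highest 79.7 CPM) and Tef (highest 45 CPM), and Clock stood apart at its low end (2.31 CPM in replicate 4). In hepatectomy flox inputs they were Clock (highest 98.2 CPM), Arntl (13.3 CPM) and Dbp (1.16 CPM). In sham KO inputs they were Dbp (51.0 CPM) and Nr1d1 (37.6 CPM), and in sham flox inputs Per2 (21.7 CPM) and Per1 (6.87 CPM).

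The genotype difference of Elovl3 and Cyp8b1 in IP, large after hepatectomy, differed between the surgeries in the test of the interaction (edgeR adjusted p = 0.000142 and 0.00227).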

How the results depend on the processing

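The counts of clock genes past the threshold moved with the choices below. In IP, KO against flox after hepatectomy (2 genes) gave 1 without scaling factors, 0 with only the libraries compared, 0 with age in days as a block, and 1 to 2 without each library in turn. Hepatectomy against sham in KO (1 gene) gave 0 without scaling factors, 2 with DESeq2 (Dbp and Tef), 3 without a filter (Nr1d1 as well), 0 with the replicate number as a block (Dbp -2.76, adjusted p = 0.0541), 0 with only the libraries compared, and 0 to 2 without each library in turn. In IP over input within hepatectomy flox livers (1 gene) the count was 0 without scaling factors, with upper-quartile factors and with the animal as a block, and 0 to 1 without each library in turn. Where edgeR gave 0, DESeq2 gave 1 in input for KO against flox after sham surgery, 1 for hepatectomy against sham in flox and 1 for the interaction. In IP against input DESeq2 gave 2 (KO against flox, hepatectomy), 1 (KO against flox, sham), 1 (hepatectomy against sham, KO), 2 (hepatectomy against sham, flox) and 2 (interaction), and within groups 1 (hepatectomy KO) and 2 (sham flox). The cause of these moves was not tested. The direction turned with age as a block for Per3 in KO against flox after hepatectomy (0.57) and for Nr1d1 in hepatectomy against sham in flox (0.30), both in IP, and without 1 animal for the per-animal ratio of Nr1d2 in hepatectomy against sham in flox (-0.12 to 0.89). Whether replicate numbers pair livers of different groups is not given in the sources used here. Same-numbered IP libraries of different groups had a median correlation of 0.01 (-0.141 to 0.346), and differently numbered ones -0.002 (-0.322 to 0.167). Input and IP libraries of the same animal, which are paired, had a median of only 0.036, so these correlations cannot decide it. With the number as a block Dbp (-3.02, adjusted p = 0.0254) and Tef (-3.00, 0.0487) passed between KO and flox after hepatectomy. Over all alternatives, 284 counts and per-animal ratios kept their side, 33 moved and 1 turned; of single changes 222 kept their direction and side of the threshold, 22 lost the call, 5 gained one and 2 turned.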
